A study of Mus musculus with 2 samples.

Results

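The transmembrane mucins Muc1, Muc3, Muc4, Muc13 and Muc20 were followed in wild-type adult mice on 2 Mouse Genome 430 2.0 arrays of Affymetrix, 1 for total RNA of a colon biopsy and 1 for total RNA of a small intestine biopsy. No treatment was given to either group in the labels, which also do not say how many animals each biopsy came from. The genes were chosen by name. All probe sets assigned to exactly 1 of these symbols were kept, which gave 9 probe sets for the 5 genes, out of 34958 probe sets assigned to 1 gene and 18194 genes on the array. The arrays were made for comparison with transcript data from other techniques, and the one comparison they allow is between these tissues. With 1 array per tissue there was no replicate, so no test was made and the difference of a gene cannot be set against a spread between animals.

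Transmembrane mucins are large glycoproteins anchored in the apical membrane of epithelial cells. Their extracellular part is rich in serine and threonine and carries dense O-linked glycans, and on the microvilli of the gut these chains form the glycocalyx, which lies beneath the secreted mucus of goblet cells. Short cytoplasmic tails and membrane-near domains link some of them to growth factor receptors and scaffold proteins. Muc3 and Muc13 are known as mucins of the intestinal surface, Muc1 as a mucin of many glandular epithelia, Muc4 as a binding partner of the receptor ErbB2, and Muc20 as a partner of the receptor Met.

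Muc3, Muc4 and Muc13 gave signals above background in both tissues, whereas Muc1 and Muc20 stayed at background in both. Muc3 was 2.37-fold and Muc4 2.05-fold higher in colon, the latter on 1 of its 3 probe sets, and Muc13 was nearly level with a difference of 1.04-fold. None of the 5 genes reached the 3-fold difference used as the rule for a call, in either direction. Among all 18194 genes that rule called 3.33% as higher in colon and 3.46% as higher in small intestine, and among the 9814 genes above background on both arrays 4.8% and 4.81%. At 2-fold, which Muc3 and Muc4 passed, 8.14% of all genes and 12.7% of those above background on both arrays were higher in colon, and 2 of 5 members are too few to be read against these shares. The median difference of the 5 genes was 0.00, as was that of all genes, but the floor fixes Muc1 and Muc20 at 0. Without a floor, 4 of the 5 genes had the higher value in colon, 2 of them from levels below background, and the medians were -0.46 for the 5 genes and 0.01 for all genes. Levels are given throughout as deposited log2 expression values, differences as small intestine minus colon on the log2 scale, and values below a background level of 5 were raised to 5 before a difference was taken.

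**Figure D1:**
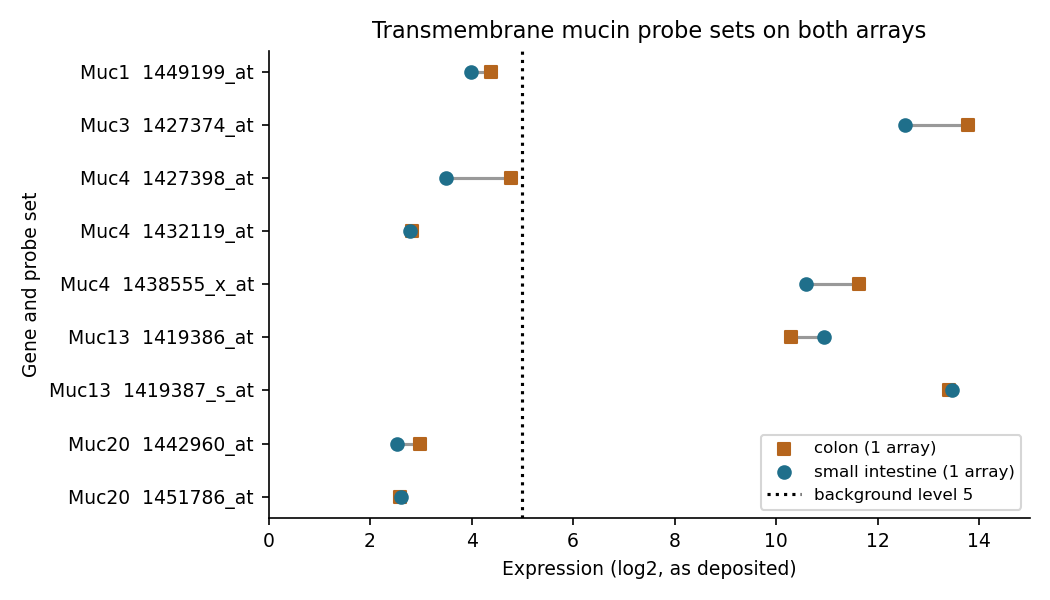
Log2 expression (horizontal axis, as deposited) of each of the 9 transmembrane mucin probe sets on the colon array (squares) and the small intestine array (circles), with 1 array per tissue and a dotted line at the background of 5. The 4 probe sets right of the line, those of Muc3 and Muc13 and 1 of Muc4, lie between 10.29 and 13.78, and the other 5 lie left of it on both arrays.

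Muc3, a mucin of the enterocyte brush border, had the largest difference of the 5 genes. Its single probe set (1427374_at) read 13.78 in colon and 12.53 in small intestine, a difference of -1.25. Both tissues were far above background, and colon was the higher. Of 9814 genes expressed above background on both arrays, 8.32% had a difference further towards the colon, and 15.84% differed by at least as much in either direction. Muc3a, a gene of the same family that lies close to Muc3 in the RefSeq annotation, had no probe set under its own name, and whether its transcript can contribute to the Muc3 probe set was not tested.

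Muc4 carries domains that resemble epidermal growth factor near the membrane. The probe set 1438555_x_at read 11.63 in colon and 10.60 in small intestine, a difference of -1.03, and 11.94% of genes above background on both arrays had a difference further towards colon. The other probe sets of the gene gave no such signal. The probe set 1427398_at read 4.78 in colon and 3.49 in small intestine, and 1432119_at read 2.83 and 2.80, so that both lay below background in both tissues. The level of Muc4 therefore rests on a probe set whose suffix _x marks probes that may also match other transcripts. The platform annotation lists no accession for this probe set. With the other probe sets alone Muc4 would be at background. A less strict disagreement was common on these arrays. Of 1549 genes with at least 2 probe sets and a brightest one averaging above 10, 748 (48.29%) had another probe set at or below background on both arrays. That share asks for any such probe set, whereas both other probe sets of Muc4 were dim. How often all other probe sets of a gene were dim was not counted. In the RefSeq annotation Muc4 overlaps Muc20, which lies on the opposite strand, and Muc20 was at background on both of its own probe sets.

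Muc13, a mucin of the surface of gut epithelium, had high levels in both tissues on both of its probe sets. The brighter, 1419387_s_at, read 13.41 in colon and 13.46 in small intestine, a difference of 0.05. The other, 1419386_at, read 10.29 in colon and 10.95 in small intestine, a difference of 0.66 or 1.58-fold. Both placed the small intestine higher, by 0.60 log2 units more on the second. The median range between probe sets was 0.59 over the 3535 genes with at least 2 of them above background on both arrays. Some of those genes had more than 2 such probe sets, which can widen a range, so the comparison with Muc13 is not like for like. By its brighter probe set Muc13 lay near the middle of all genes, with 57.43% of the 9814 genes at a lower difference.

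**Figure D2:**
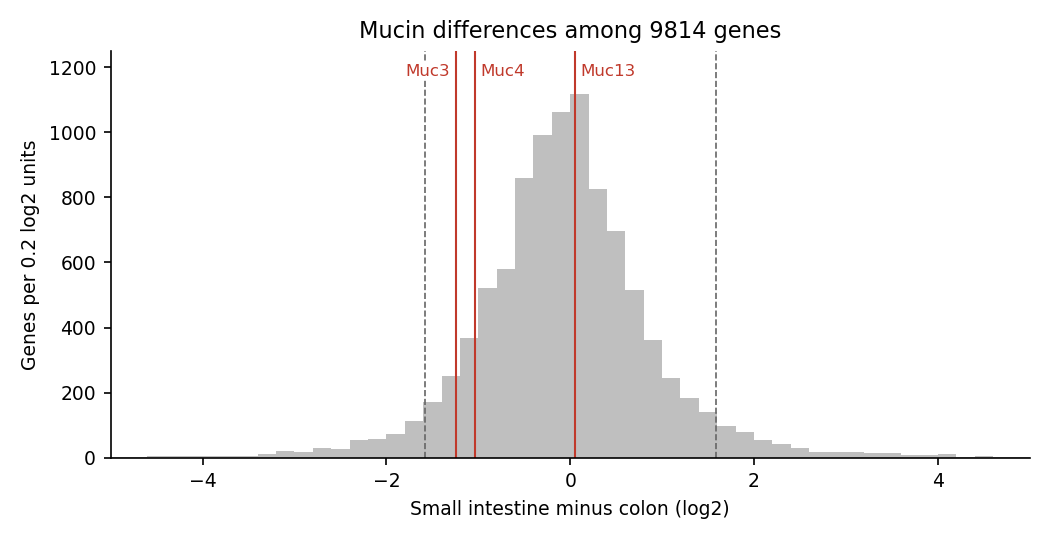
Number of genes (vertical axis) per 0.2 log2 units of the small intestine minus colon difference (horizontal axis) for the 9814 genes above background on both arrays, of which 41 that differ by more than 5 are not drawn. Red lines mark Muc3 at -1.25, Muc4 at -1.03 and Muc13 at 0.05, all of which lie between the dashed lines at 3-fold.

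Muc1, whose cytoplasmic tail takes part in signalling and whose extracellular part can be shed, was dim in both tissues. Its single probe set (1449199_at) read 4.38 in colon and 3.98 in small intestine. Muc20 was also dim on its 2 probe sets, with 2.98 in colon and 2.52 in small intestine for 1442960_at and with 2.59 and 2.61 for 1451786_at. Neither gene has a fold here, since both tissues lay at background. A level below 5 on these arrays says that the probe set gave no signal above background, not that the transcript was absent. The colon array carried strong signals of the exocrine pancreas, with all 8 measured markers of that tissue past 3-fold. The 6 with the widest differences were the elastases Cela3b and Cela2a, the proteases Ctrl, Cpb1 and Cpa1 and the granule protein Sycn, at least 82.8-fold to at least 496-fold higher in colon. Whether pancreatic tissue on the colon array had a part in the differences of Muc3 and Muc4 was not tested.

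Differences of probe sets of the same gene had a pooled SD of 0.54, which reflects the probe sets of this pair of arrays and holds no spread between animals or repeated arrays. Hybridization spike-ins are bacterial and phage transcripts added to the labelled sample, as a rule in fixed amounts. Of their 18 probe sets, 14 had differences between -0.08 and 0.33. The 4 probe sets of the bioC control, in contrast, were 1.39 to 1.52 higher on the colon array. The differences of Muc3 and Muc4 were thus larger than those of most spike-in probe sets but smaller than that of 1 control.

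The 12 pan-epithelial markers, all above background on both arrays, had a median difference of 0.00, with 6 towards each tissue and a range from -0.66 for the keratin Krt19 to 1.60 for villin (Vil1), which alone reached 3-fold, at 3.02-fold. Muc3 and Muc4 lay further towards the colon than all 12, and Muc13 lay in their middle, with 6 below and 6 above it. Relative to the epithelial median, Muc3 differed by -1.25 and Muc4 by -1.04. In tissue RNA a smaller number of cells of a type cannot be told apart from less RNA in each of them. Smooth muscle markers were higher in colon for all 6 measured genes, of which Cnn1, Myh11, Smtn and Tagln passed 3-fold with 3.53-fold to 4.26-fold.

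Transcripts for proteins of the microvillus, on which the transmembrane mucins stand, ran opposite to Muc3 and Muc4. All 10 measured genes of microvillus structure and intermicrovillar adhesion had higher values in small intestine, from 0.46 for the mucin-like protocadherin Cdhr5 to 2.99 for the actin bundler Espn, with a median of 1.20. The 3 past 3-fold were Espn (7.94-fold), the motor protein Myo1a (5.47-fold) and the actin bundler Pls1 (3.35-fold). The membrane linker ezrin (Ezr) read 11.71 in colon and 12.97 in small intestine. Muc3 and Muc4 had differences below those of all 10 genes, as did Muc13 on its brighter probe set, while its other probe set, at 0.66, lay above Cdhr5. Across all genes above background on either array the median difference was -0.06.

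Of 4 measured secreted mucins, only Muc2 was above background. Muc2, the gel-forming mucin of goblet cells, was 6.76-fold higher in colon, with 14.94 against 12.19, while Muc5ac, Muc5b and Ovgp1 were at background in both tissues. Of 9 goblet cell markers, 5 were past 3-fold towards the colon and none towards the small intestine, and their median difference was -1.96. Clca1, a secreted protein of goblet cell mucus, was 3.89-fold higher in colon, the disulfide isomerase Agr2, which is needed to make Muc2, 4.60-fold, and the goblet cell transcription factor Spdef 6.83-fold. Retnlb, a secreted goblet cell protein, was above background in colon alone, by at least 359-fold. The trefoil peptide Tff3 was 1.41-fold higher in small intestine and the lectin Zg16 1.18-fold higher in colon. The differences of Muc3 and Muc4 lay inside the range of this list, with 5 of its 9 genes further towards the colon. Markers of gastric epithelium, where Muc1, Muc5ac and Muc6 are prominent, were at background in both tissues for 7 of 9 measured genes.

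**Figure D3:**
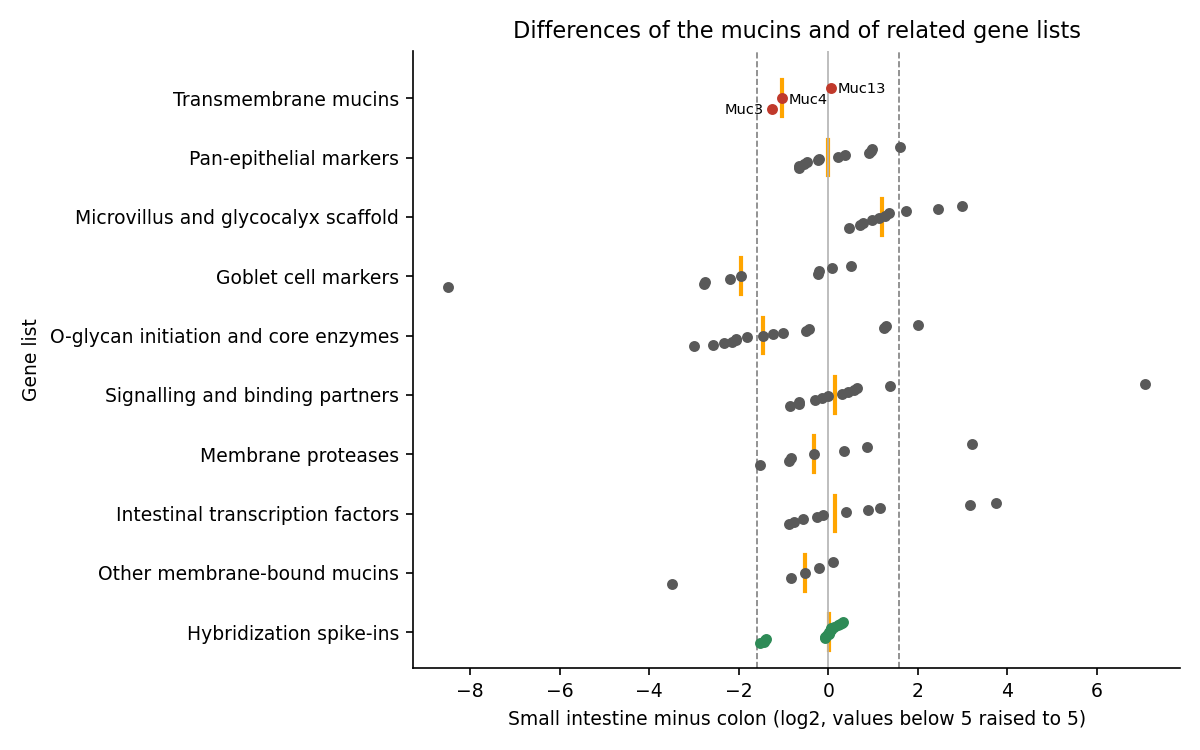
Small intestine minus colon difference (log2, values below 5 raised to 5) of the 3 transmembrane mucins above background (red), of the genes of 8 lists that were above background on either array (grey) and of the 18 hybridization spike-in probe sets (green), with group medians as orange bars and 3-fold as dashed lines. The microvillus genes lie wholly on the small intestine side with a median of 1.20, and the enzymes of O-glycan synthesis lie mostly on the colon side with a median of -1.45.

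Enzymes that start and extend O-glycans, the sugar chains that make up much of the mass of a mucin, were mostly higher in colon. Of 16 measured, 15 were above background, 12 of these on the colon side, 7 past 3-fold towards the colon and 1 towards the small intestine, with a median of -1.34 over the 16. The galactosyltransferase C1galt1, which makes the core 1 chain, was 4.43-fold higher in colon, and the branching enzyme Gcnt3 was 5.02-fold higher. B3gnt6, the enzyme of the core 3 chain, read 8.01 in colon and 3.29 in small intestine, at least 8.06-fold higher. The polypeptide transferases Galnt12, Galnt4 and Galnt5, which attach the first sugar, had differences of -2.58, -2.06 and -2.06. Galnt2, of the same family, ran the other way, with 6.84 in colon and 8.84 in small intestine.

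Binding partners of the mucin tails and membrane-near domains had differences centred near 0, with 1 far apart. Of 12 genes, the scaffold protein Pdzk1, whose human counterpart binds the tail of MUC17, was at least 135-fold higher in small intestine, with 12.07 there and 3.49 in colon. The others lay between -0.85 and 1.38 and did not reach 3-fold. The receptor gene Erbb2, known as partner of Muc4, read 7.59 in colon and 7.46 in small intestine. Met, the receptor that Muc20 can bind, read 9.42 and 9.72. The lectin gene Lgals3, whose product binds mucin glycans, read 14.67 in colon and 14.02 in small intestine. The median difference of the 12 genes was 0.15.

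Proteases of the cell membrane, some of which shed mucins, had a median difference of -0.33. Of 7 measured, the meprin subunit Mep1b was 9.25-fold higher in small intestine and no other reached 3-fold. Adam17, a sheddase of Muc1, read 7.96 in colon and 7.63 in small intestine. Of 10 measured transcription factors of the gut epithelium, Hnf4g (at least 13.4-fold) and Gata5 (at least 8.94-fold) were past 3-fold towards small intestine and none was towards colon. Cdx2 and Hnf4a, which act in both regions, had differences of 0.39 and -0.11.

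Among other membrane-bound mucins and sialomucins, 7 of 11 listed genes were measured. Parm1, a mucin-like membrane protein, read 11.02 in colon and 7.53 in small intestine on its brighter probe set, 11.3-fold higher in colon, and it was the only one past 3-fold. The sialomucin Cd164 read 13.22 and 12.39, a difference of -0.82, and the endothelial sialomucin Emcn 5.86 and 5.33. Of 5 endothelial markers above background on either array, 4 lay on the small intestine side and 1 on the colon side. Muc15 and Muc16 were at background in both tissues. No probe set carried the names Muc12, Muc17, Muc21 or Muc3a, so no gene was analysed under these names.

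Likeness in difference was taken over the 85 listed genes above background on both arrays and describes 2 arrays only. The genes nearest to Muc3 were Galnt3 (-1.23) and Galnt7 (-1.45), polypeptide transferases of O-glycan synthesis. Those nearest to Muc4 were C1galt1c1 (-1.01), the chaperone of C1galt1, and the smooth muscle actin Acta2 (-1.01). Those nearest to Muc13 were the goblet cell product Spink4 (0.09) and the sialomucin Podxl (0.11).

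**Figure D4:**
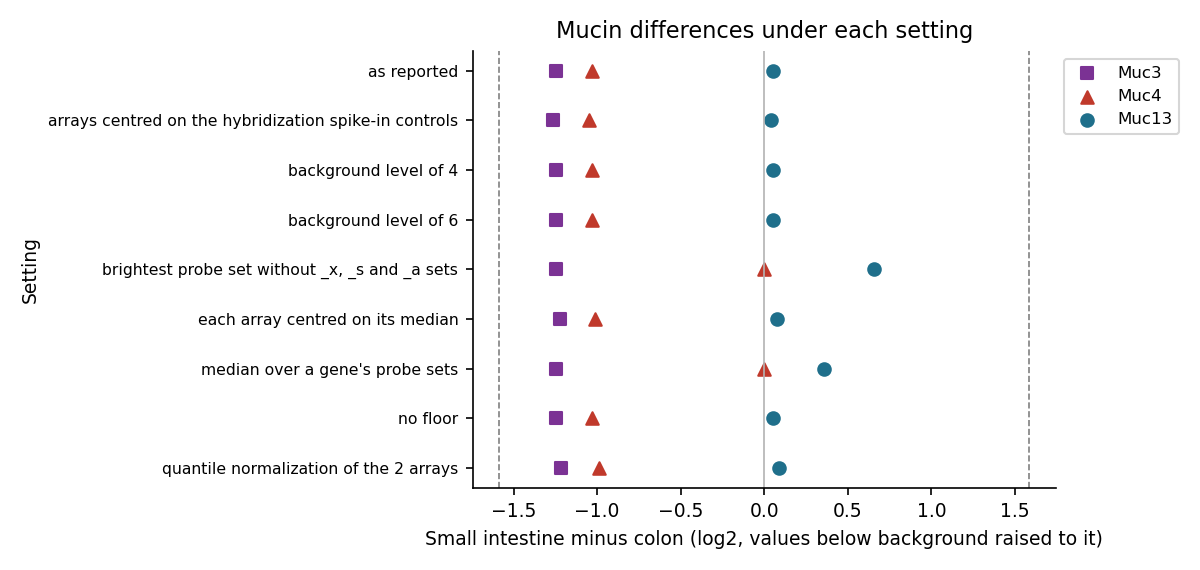
Small intestine minus colon difference (horizontal axis, log2) of Muc3 (squares), Muc4 (triangles) and Muc13 (circles) as reported and under 8 other settings, with 3-fold as dashed lines. Muc3 stays between -1.26 and -1.22, but with a single bright probe set it can move only where the arrays are shifted or normalized anew. Muc4 moves to 0 in the 2 settings that do not use its bright probe set alone, and Muc13 reaches 0.66 on its other probe set.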

How the data were processed

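The values deposited by the authors are log2 expression values per probe set, for 45101 probe sets on each of 2 arrays. The processing notes name GCRMA, while RMA is named in the study's methods, which refer to arrays under another accession; versions and the arrays normalized together are not given in the sources used here. Values were used without further scaling. Probe sets were named from the platform annotation, with symbols checked by Entrez identifier in RefSeq (GRCm38.p6): 34958 had 1 gene, 932 with several genes were left out, and 9160 other than controls had no name. All 9 mucin probe sets matched. The brightest probe set by the mean of both arrays stood for a gene. No coordinates are given, as the values name no build.

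A background of 5 exceeded all of 80 olfactory and vomeronasal receptor probe sets (highest 4.78). Calls needed 3-fold after raising lower values to 5. The study used this fold for the sequencing data of its few samples, with another correction for rare transcripts, and not for arrays. A fold against a tissue at background is a lower bound. The number of arrays limits the precision. Members, lists and thresholds were chosen with earlier results of these data known. From each list the genes named were those past 3-fold, at most 6 per list, and up to 3 more bright ones, besides the 2 nearest to each expressed mucin. The smallest and largest difference of a list, Cdx2, Hnf4a, Erbb2, Met, Adam17, and genes at background were named after their values were seen. The rule was tried on simulated arrays with an assumed noise SD of 0.5 and with changes placed only in bright genes. That trial cannot show how the rule performs here, since the noise between these arrays and between animals is unknown. Python 3.11.15, numpy 2.4.6, pandas 2.3.3 and matplotlib 3.10.9 were used.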

Additional observations from a re-analysis of the deposited data

How the results depend on the processing

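With 1 array per tissue, changes of a difference were set against the pooled SD of 0.54 between probe sets of a gene. Muc3 ranged from -1.26 to -1.22 over 9 settings. Its single probe set lay far above background, so only settings that shift or normalize the arrays anew could change it. Muc4 was 0 where each gene was given the median of its probe sets and 0 when probe sets marked _x, _s or _a were left out, because its other probe sets were at background, and Muc13 was 0.66 in the latter, which uses its other probe set. No member reached 3-fold in any setting. At 2-fold, 2 members (Muc3 and Muc4) were higher in the colon, beside 1481 genes in all (8.14%), and 1265 genes were higher in the small intestine. At 5-fold, 260 and 309 genes were. Muc1 and Muc20 had differences of -0.40 and -0.46 without a floor, from levels at background. Of 40 differences under other settings, 37 changed by less than this SD, and of 40 counts of genes, 35 stayed within 1.5 times the count reported. These tallies say little about robustness. The floor held Muc1 and Muc20 at 0 in most settings, and a mucin count of 0 against 0 was scored as unchanged. The counts that moved were all at 2-fold or 5-fold. No paired analysis was possible because each tissue has 1 array. Depth does not apply to arrays, and signals under background limit what can be said of Muc1 and Muc20.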
